A study of Mus musculus with 12 samples.

Results

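Pim1, Pim2 and Pim3 make up the PIM kinase family, and all 3 were found among the 41091 gene IDs of both deposited count tables by mapping Ensembl IDs to symbols. The family was chosen by its measured values: Pim3 had stood out in these libraries for a large difference between the control groups and for an effect of LTP that changed direction with time. Values of Pim3 in these contrasts are therefore given as a description, with no test, whereas Pim1 and Pim2 entered as the other genes of the family. Total RNA was sequenced from acute hippocampal slices of male wild-type C57BL/6 mice aged 2 to 3 months, from which the dentate gyrus had been trimmed. To induce chemical long-term potentiation (LTP), slices were treated for 10 min in all. They received 50 uM forskolin alone for 5 min, which activates adenylyl cyclase, and then forskolin with 30 mM KCl and 10 mM calcium. Control slices received the vehicle, 0.2% DMSO, for the same 10 min. Slices were frozen 1 hr or 3 hr later, which gave 4 groups of 3 libraries each, LTP and control at either time. Each animal supplied both control and LTP slices at its time point. Per the study's methods, samples were screened by qPCR before sequencing. Those taken on showed Arc and the short Homer1 isoform raised by LTP, with the long Homer1 isoform and Hprt unchanged. Every group thus consisted of cut slices kept in a chamber, with no uncut tissue, and the slices of an animal were pooled. The labels do not state whether the animals differed between 1 hr and 3 hr, so time since treatment and animal cannot be told apart.

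PIM kinases are serine/threonine kinases that are active as soon as they are made, so that their activity follows the amount of transcript and protein rather than an activating phosphorylation. Their genes are known targets of cytokine signalling through JAK-STAT and NF-kB, and the kinases phosphorylate regulators of survival, the cell cycle and translation such as BAD, p21, p27 and 4E-BP1. Their substrates overlap with those of AKT, and Pim1 has been linked to synaptic plasticity in the hippocampus.

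Libraries held from 37118382 to 50815001 counts, and levels are given as CPM, the counts scaled for library size with TMM. A floor of 3 counts was worth from 0.0584 to 0.0791 CPM, far below any Pim gene. The replicate 2 library of the 1 hr control was left out of the fits because the authors excluded it after clustering the samples. Its values are given beside the others and called those of the set-aside library. Markers of the tissue were present in all groups: the summed level of 7 pyramidal neuron markers lay between 2680 and 4170 CPM, that of 6 astrocyte markers between 4410 and 5310 CPM, and that of 5 dentate granule cell markers, despite trimming, between 124 and 234 CPM. The 5 choroid plexus markers summed to 23.3 to 29.3 CPM, of which Kl held 21.5 to 28.4 CPM, while Ttr, Folr1, Kcne2 and Clic6 each stayed at or below 2.22 CPM. Of the markers of other and resident cell types, 46 were tested for LTP against control at 1 hr and 45 at 3 hr, of which 0 were called by edgeR's quasi-likelihood test and 9 and 5 had an unadjusted p under 0.05, as did 6.71% and 20.2% of all genes. The 9 at 1 hr were 3 oligodendrocyte lineage, 2 inhibitory neuron and 1 choroid plexus marker, all higher with LTP, and 3 endothelial markers, all lower. At 1 hr the 6 endothelial markers summed to 111 to 123 CPM in controls and 99.2 to 105 CPM with LTP (median log2 fold change -0.22), and the 6 oligodendrocyte lineage markers to 5690 to 7140 CPM and 6900 to 8220 CPM (median 0.22). Their part in the 1 hr values of the Pim genes was not tested. These are bulk samples, in which fewer cells of a type and less RNA per cell cannot be told apart.

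The promoter regions of Pim3 and Pim1 are shown. Pim3 is the member on whose values the family was chosen, and Pim1 is the other member called for LTP against control in the main fits. The RefSeq table (GRCm38.p6) held windows from 250 bases before to 50 bases after a start site for all 3 genes, 4 windows in total because Pim1 has a pair of start sites. The stretches before the first annotated transcript base are printed 5′ to 3′ on the plus strand, chr15:88861944-88862185 for Pim3 and chr17:29490535-29490752 for Pim1, with capitals marking matches to any of the motifs searched.
Pim3: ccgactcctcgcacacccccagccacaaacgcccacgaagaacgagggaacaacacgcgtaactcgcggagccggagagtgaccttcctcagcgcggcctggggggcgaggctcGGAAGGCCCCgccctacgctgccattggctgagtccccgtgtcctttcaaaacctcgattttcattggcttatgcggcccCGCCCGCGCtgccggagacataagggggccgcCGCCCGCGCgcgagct
Pim1: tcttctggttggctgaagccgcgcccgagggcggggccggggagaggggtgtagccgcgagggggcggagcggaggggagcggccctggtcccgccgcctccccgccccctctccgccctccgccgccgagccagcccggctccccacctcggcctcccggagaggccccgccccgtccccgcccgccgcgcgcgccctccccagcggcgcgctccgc
The motifs searched, on both strands of the whole windows, were the full cAMP response element TGACGTCA, its core TGACG, the STAT site TTCNNNGAA, the AP-1 site TGANTCA, the EGR site GCGNGGGCG and the NF-kB site. The full element contains the core, so matches to these motifs can overlap. The Pim3 window held 2 EGR letter matches, which began 56 and 24 bases before the start site on the minus strand, and 1 NF-kB letter match, which began 136 bases before it on the minus strand. Neither of the Pim1 windows nor the Pim2 window held a match to any of these motifs. Among all 32851 windows of the table, 5.55% held the EGR letters, 8.46% the NF-kB letters, 8.3% the STAT letters, 7.81% the AP-1 letters, 1.79% the full element and 20.8% its core. A match is a description of the letters in the window and not of a bound site. The G and C content was 69.0% in the Pim3 window, higher than in 88.9% of windows, and 81.3% in the first Pim1 window, higher than in 99.3%, beside 62.7% in the Pim2 window.

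Each gene occupies a short stretch of the genome (GRCm38). Pim3 (ENSMUSG00000035828) lies at chr15:88862186-88865726 on the plus strand with 2427 exonic bases in 6 merged exons, and none of its exonic bases overlaps another gene. Pim1 (ENSMUSG00000024014) lies at chr17:29490753-29496112 on the plus strand with 3362 exonic bases in 8 merged exons. Of these bases, 14.5% overlap exons of another gene, and the antisense gene Gm26885 covers its 5′ end. The libraries were made with a stranded kit, but no source used here says if strand entered the counting, so reads of the 2 genes may not have been told apart. Gm26885 itself was listed with 7 to 49 counts per library, from 0.181 to 1.08 CPM. Pim2 (ENSMUSG00000031155) lies at chrX:7878262-7883432 on the plus strand with 2795 exonic bases in 6 merged exons and no overlap. The G and C content of the longest transcript was 61.9% for Pim3, higher than in 97.9% of 18078 genes, 56.0% for Pim1 and 54.7% for Pim2.

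All 3 members passed the filter on low counts in every comparison. Per kb of exonic length and averaged over the libraries, Pim3 was the most abundant with 22.1 CPM per kb, above 88.2% of genes, followed by Pim1 with 13.3 CPM per kb, above 79.3%, and Pim2 with 7.57 CPM per kb, above 67.0%. The counts behind these levels ran from 1024 to 4218 per library for Pim3, from 1084 to 2948 for Pim1 and from 698 to 1312 for Pim2. Counting error was thus small and the spread between libraries set the precision.

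**Figure D1:**
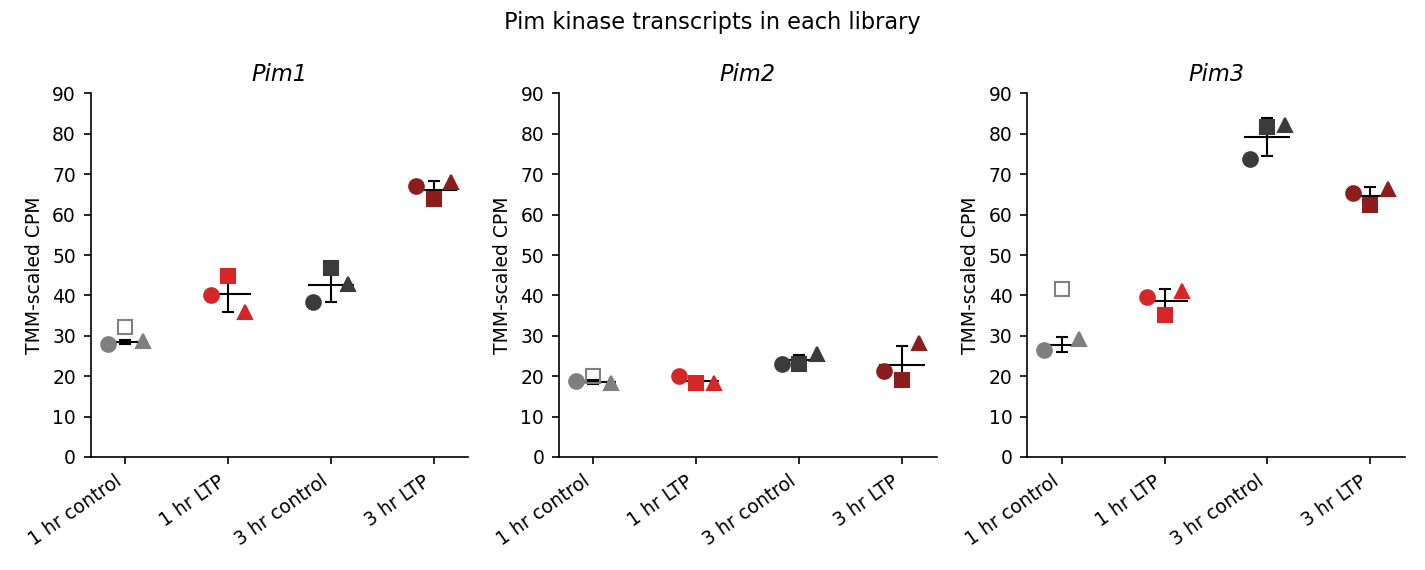
TMM-scaled CPM (y axis, linear from 0) of Pim1, Pim2 and Pim3 in each of the 12 libraries by group (x axis), where circles, squares and triangles are animals 1, 2 and 3, the open square is the set-aside 1 hr control library and black bars are the mean ± SD of the fitted libraries. Pim1 is highest in the 3 hr LTP libraries (63.8 to 68.0 CPM), Pim3 is highest in the 3 hr control libraries (73.9 to 82.1 CPM) and Pim2 stays between 18.2 and 28.2 CPM.

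Pim3 was higher at 3 hr than at 1 hr in both conditions. In the 1 hr control its level was 26.4 CPM in replicate 1 and 29.2 CPM in replicate 3, and 41.6 CPM in the set-aside replicate 2. The 1 hr LTP libraries held 39.5, 35.1 and 41.0 CPM, the 3 hr control libraries 73.9, 81.7 and 82.1 CPM, and the 3 hr LTP libraries 65.3, 62.4 and 66.4 CPM. Every 3 hr library was above every 1 hr library, and the order of the groups was 1 hr control, 1 hr LTP, 3 hr LTP and 3 hr control. None of the neighbours in this order overlapped among the fitted libraries, whereas the set-aside library lay above all 3 of the 1 hr LTP libraries. As means, the groups held 27.8 ± 1.92 (SD, n = 2), 38.5 ± 3.04 (SD, n = 3), 64.7 ± 2.03 (SD, n = 3) and 79.2 ± 4.62 CPM (SD, n = 3) in that order. With the set-aside library the 1 hr control held 32.4 ± 8.09 CPM (SD, n = 3), and its range then enclosed that of the 1 hr LTP group.

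As fold changes, Pim3 was 2.79-fold higher in 3 hr than in 1 hr controls (log2 1.48, SE 0.0873). With LTP it was 1.40-fold the control at 1 hr (log2 0.48, SE 0.0895) and 0.824-fold at 3 hr (log2 -0.28, SE 0.0654). The difference of these LTP effects, 3 hr minus 1 hr, was -0.75 on the log2 scale (SE 0.112), and among the LTP slices alone Pim3 was 1.66-fold higher at 3 hr (log2 0.73, SE 0.0744). Including the set-aside library lowered the 1 hr effect to a log2 of 0.26 (SE 0.134). With offsets for GC content and length, the 3 hr effect was -0.17 (SE 0.0680). The rise was then 0.97 between controls (SE 0.0835) and 0.31 between LTP slices (SE 0.0721), in the same direction as without offsets. The control libraries enter the LTP effects, their difference and the comparison of controls alike, so these values share samples and do not support each other.

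Pim1 rose with LTP at both time points and with time in both conditions. Its level was 28.0 CPM in replicate 1 and 28.8 CPM in replicate 3 of the 1 hr control, 32.1 CPM in the set-aside replicate 2, and 40.2, 44.9 and 35.9 CPM in the 1 hr LTP libraries. At 3 hr, the control libraries held 38.3, 46.8 and 42.8 CPM and the LTP libraries 67.0, 63.8 and 68.0 CPM. Every LTP library lay above every control library of its time point, the set-aside library included, whereas the 1 hr LTP and 3 hr control libraries overlapped. The group means were 28.4 ± 0.537 (SD, n = 2), 40.3 ± 4.53, 42.6 ± 4.23 and 66.2 ± 2.17 CPM (SD, n = 3 each), for control and LTP at 1 hr and then control and LTP at 3 hr.

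At 1 hr, Pim1 was 1.43-fold higher with LTP than in controls (log2 0.52, SE 0.0971, adjusted p = 0.0208 by edgeR's quasi-likelihood test with Benjamini-Hochberg adjustment over all genes). Calls needed a fold change above 1.2 and an adjusted p below 0.1. This held for 0.789% of 17736 genes tested in this comparison, 0.778% higher and 0.0113% lower with LTP. The 1 hr call did not hold in every refit. Leaving out replicate 1 of the control moved its adjusted p by edgeR to 0.351, leaving out replicate 3 of the control to 0.235, and leaving out replicate 1 of the LTP group to 0.110. With either control left out that arm is 1 library, which is assumed to vary like the LTP group, here and for the other genes below. With the set-aside library and animal as a replicate block it was 0.101 by edgeR, and the estimates lay between 0.45 and 0.54 in these fits. At 3 hr, Pim1 was 1.57-fold higher with LTP (log2 0.65, SE 0.0811, adjusted p = 0.00551 by edgeR's quasi-likelihood test), where 6.60% of 17508 genes were called, 5.07% higher and 1.53% lower. The call at 3 hr held in every setting tried, including those that left out 1 library.

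Pim2 was the member with the lowest level, and the spread of its log2 level within groups (SD 0.158) was wider than that of Pim1 (0.112) and Pim3 (0.0906). The 1 hr control libraries held 18.9 and 18.2 CPM, with 20.0 CPM in the set-aside replicate 2, and the 1 hr LTP libraries held 20.1, 18.4 and 18.4 CPM. The 3 hr control libraries held 22.9, 23.1 and 25.5 CPM and the 3 hr LTP libraries 21.3, 19.0 and 28.2 CPM. The LTP and control libraries overlapped at both time points, and the 3 hr LTP group, with 22.8 ± 4.77 CPM (SD, n = 3), had the widest spread of the 4 groups. The log2 fold change with LTP was 0.04 at 1 hr (95% interval -0.14 to 0.22, adjusted p = 0.980) and -0.05 at 3 hr (interval -0.32 to 0.21, adjusted p = 0.866) by edgeR's quasi-likelihood test, so changes beyond these intervals were not supported at this number of libraries. Leaving out 1 library moved the 3 hr value between -0.24 and 0.07, with no call in these fits (lowest adjusted p = 0.169 by edgeR).

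Between the time points, the changes of the members are described side by side, with no test of 1 member against another. In controls, 3 hr against 1 hr, Pim1 rose 1.47-fold (log2 0.56, SE 0.101, adjusted p = 0.00134 by edgeR) and Pim2 1.26-fold (log2 0.34, SE 0.134, adjusted p = 0.0714 by edgeR), beside the 2.79-fold of Pim3, on which the choice rested. With offsets for GC content and length, the log2 rise of Pim1 was 0.30 (SE 0.104, adjusted p = 0.0423 by edgeR). These counts of members have to be read against a comparison in which 32.8% of 18584 genes were called, 16.1% higher and 16.8% lower at 3 hr. The call of Pim2 was lost with offsets for GC content and length (log2 0.14, adjusted p = 0.375 by edgeR) and on leaving out any of 3 libraries. These were replicates 1 and 3 of the 1 hr control and replicate 3 of the 3 hr control (adjusted p = 0.136, 0.212 and 0.160 by edgeR). In LTP slices, 3 hr against 1 hr, Pim1 rose 1.62-fold (log2 0.70, SE 0.0884, adjusted p = 9.90e-05 by edgeR). With the offsets the log2 rise of Pim1 was 0.46 (SE 0.0906, adjusted p = 0.00156 by edgeR). Pim2 had a log2 fold change of 0.25 there (SE 0.119, adjusted p = 0.118 by edgeR). It was called by edgeR without 1 hr LTP replicate 1 (adjusted p = 0.0970), without 3 hr LTP replicate 2 (adjusted p = 0.0136) or with the set-aside library (adjusted p = 0.0883). In that comparison 35.9% of 18584 genes were called, 18.6% higher and 17.3% lower.

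Microglia markers moved with time beside these changes. The summed level of 6 such markers was 237 to 266 CPM in the 1 hr control, 246 to 262 CPM in 1 hr LTP, 176 to 202 CPM in the 3 hr control and 165 to 189 CPM in 3 hr LTP, none of them at 0, and 5 of the 6 fell between the controls. The 6 endothelial markers summed to 91.2 to 95.6 CPM in the 3 hr control, below the 1 hr control, and 4 of 6 fell. In LTP slices they summed to 89.6 to 107 CPM at 3 hr, a range around that of 1 hr, and 2 rose and 2 fell. Between the controls 2 of 6 oligodendrocyte lineage markers rose, 3 of 7 pyramidal neuron markers (2 higher), 2 of 5 dentate granule cell markers (1 higher) and 2 of 6 inhibitory neuron markers (1 higher) were called, and 1 of 6 astrocyte markers fell. Of all genes, 32.8% were called between the controls (16.1% higher, 16.8% lower) and 35.9% between the LTP slices. The part of these shifts in the differences between time points was not tested.

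The LTP effect was also computed within each animal, as the log2 ratio of its LTP to its control library with a pseudocount of 0.1 CPM. For Pim1 it was 0.52, 0.48 and 0.32 at 1 hr, in the order of animals 1, 2 and 3, and 0.80, 0.45 and 0.66 at 3 hr, above 0 in 6 of 6 pairs of libraries. For Pim3 it was 0.58, -0.24 and 0.49 at 1 hr and -0.18, -0.39 and -0.31 at 3 hr, so that the only animal against the direction of its group was the one whose control library had been set aside. For Pim2 it was 0.09, -0.12 and 0.01 at 1 hr and -0.11, -0.28 and 0.14 at 3 hr, with both signs at each time point.

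**Figure D2:**
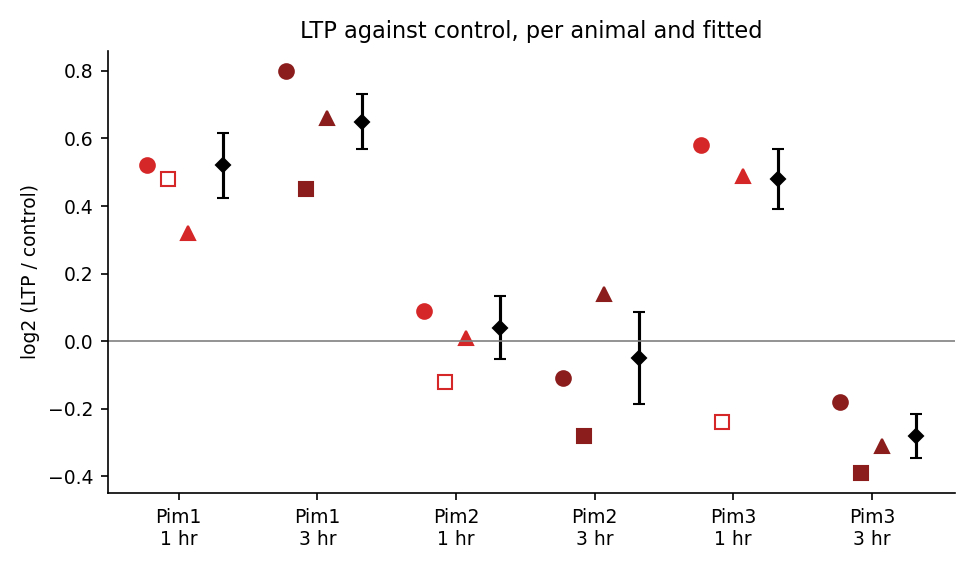
Log2 ratio of the LTP to the control library of each animal (y axis) for each Pim gene and time point (x axis), with circles, squares and triangles for animals 1, 2 and 3 and an open square for the animal of the set-aside control, and black diamonds with bars for the fitted log2 fold change ± SE (fitted without the set-aside library). Pim1 lies above 0 in all 6 pairs, from 0.32 to 0.80, and Pim3 lies below 0 in all 3 animals at 3 hr, from -0.39 to -0.18.

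The difference of the LTP effect between time points was 0.14 for Pim1 (SE 0.133, 95% interval -0.12 to 0.40, adjusted p = 0.937 by edgeR) and -0.09 for Pim2 (SE 0.179, interval -0.44 to 0.26, adjusted p = 0.979 by edgeR), neither of them called. This difference passed an adjusted p under 0.1 in 0.0592% of 18584 genes, 0.0269% with a higher and 0.0323% with a lower effect at 3 hr. The rule by which Pim3 was chosen used it. Without a model, the fitted groups of Pim1 did not overlap in any of the 4 pairwise comparisons, nor did those of Pim3, and those of Pim2 only in the comparison of controls. The share of all genes whose fitted groups did not overlap was 22.6% for LTP against control at 1 hr, 27.0% at 3 hr, 60.7% for the controls and 44.9% for the LTP slices.

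The opposite changes of Pim1 and Pim3 with LTP at 3 hr showed in their ratio within each library, a quantity that does not depend on library scaling. The ratio of Pim3 to Pim1 counts was 0.945, 1.30 (the set-aside library) and 1.01 in the 1 hr control and 0.984, 0.782 and 1.14 in 1 hr LTP, groups that overlapped. It was 1.93, 1.75 and 1.92 in the 3 hr control and 0.975, 0.979 and 0.977 in 3 hr LTP. The 3 hr control libraries thus stood above all others, and the 3 hr LTP libraries lay within the range of the 1 hr groups. This ratio holds Pim3, on whose values the family was chosen, so it too is a description.

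Per kb of exonic length, the 3 genes together summed to 26.0, 33.9 and 27.1 CPM per kb in the 1 hr control, the middle value being the set-aside library, and to 35.4, 34.4 and 34.1 CPM per kb in 1 hr LTP. At 3 hr they summed to 50.1, 55.9 and 55.7 CPM per kb in controls and to 54.4, 51.5 and 57.6 CPM per kb with LTP. The sums of the 3 hr groups overlapped although their makeup differed. Pim3 made up 60.8%, 60.3% and 60.7% of the sum in the 3 hr control and 49.4%, 49.9% and 47.4% in 3 hr LTP. Pim1 made up 22.8%, 24.9% and 22.9% in the 3 hr control and 36.6%, 36.8% and 35.1% in 3 hr LTP. Pim2 made up 21.1% to 26.0% in the 1 hr control and 13.2% to 17.5% in 3 hr LTP, although its own level was not lower there.

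**Figure D3:**
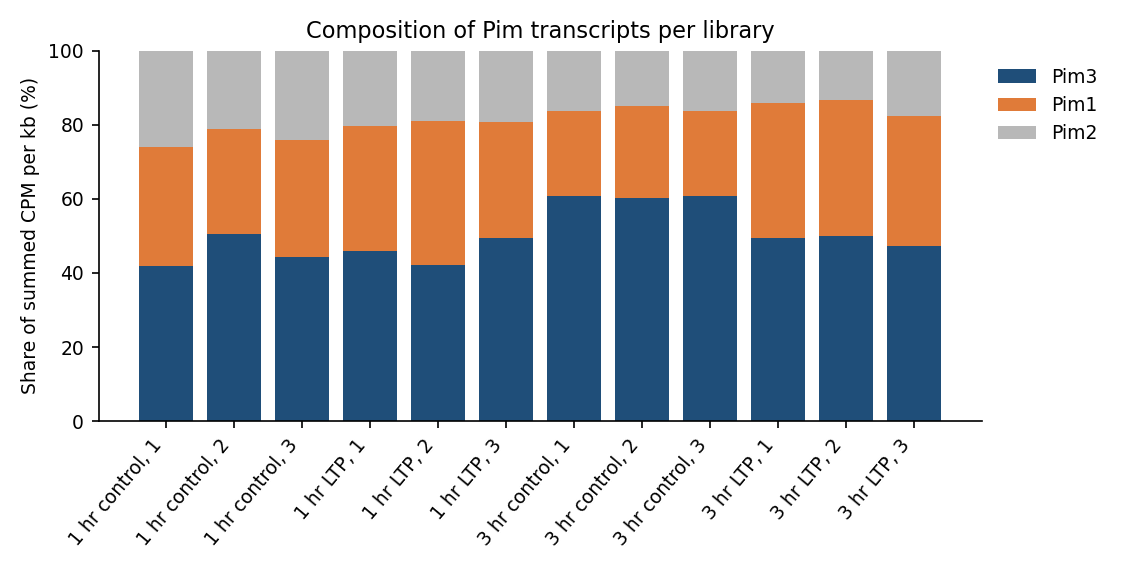
Share (y axis, %) of Pim3, Pim1 and Pim2 in their summed CPM per kb of exonic length in each of the 12 libraries (x axis, group and animal; 1 hr control 2 is the set-aside library). Pim3 holds 60.3% to 60.8% in the 3 hr controls and 47.4% to 49.9% in the 3 hr LTP libraries, where Pim1 holds 35.1% to 36.8%.

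The genes that act upstream of PIM kinases were examined as a list of 45 JAK-STAT cytokines, receptors, kinases, STATs and feedback inhibitors. At 1 hr with LTP, 1 of 44 tested rose and 0 fell, where 0.789% of all genes were called (median log2 fold change 0.04, beside -0.00 over all genes). This count was 2 by DESeq2 and with the replicate block, 3 with block and offsets, and 4 without a filter or without replicate 3 of the LTP group. At 3 hr, 5 of 45 rose and 1 fell, where 6.60% of all genes were called (median -0.02). The 6 called at 3 hr became 1 without replicate 1 or 3 of the control, 3 without replicate 2 of the control and 2 without replicate 1 of the LTP group. The cytokine Il6, an inducer of Pim1 in other tissues, was at 3.00 and 4.59 CPM in the fitted 1 hr controls and at 8.94, 11.6 and 7.85 CPM with LTP. At 3 hr it was at 9.02, 10.6 and 7.24 CPM in controls and at 21.4, 23.5 and 21.0 CPM with LTP. It rose at both time points (log2 1.32 and 1.31, SE 0.201 and 0.128, adjusted p = 0.00363 and 0.00220 by edgeR). At 3 hr the related cytokines Osm (log2 0.63, SE 0.138) and Il11 (0.82, SE 0.204), the oncostatin M receptor Osmr (0.40, SE 0.0772) and the transcription factor Stat5b (0.29, SE 0.0693) rose as well. The interferon gamma receptor subunit Ifngr1 fell (-0.33, SE 0.0901), and adjusted p ran from 0.0299 to 0.0842 by edgeR over these genes.

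Between the controls, 20 of the 45 JAK-STAT genes rose and 2 fell at 3 hr, where 16.1% of all genes rose and 16.8% fell (median 0.20, beside -0.02 over all genes). Stat3, the main transducer of Il6 signals, was at 76.3 and 81.1 CPM in the fitted 1 hr controls and at 124, 143 and 132 CPM in the 3 hr controls (log2 0.73, SE 0.0802). Stat5a rose from 4.06 to 15.4 CPM as group means (log2 1.89, SE 0.122), and the feedback inhibitors Socs3 (1.14, SE 0.0998) and Socs1 (2.00, SE 0.247), the cytokine Csf3 (2.46, SE 0.384) and the phosphatase gene Ptpn11 (0.37, SE 0.0619) rose too. The large fold changes of Socs1 and Csf3 started from low levels, 0.732 to 2.97 CPM and 0.924 to 5.16 CPM as group means. In LTP slices 20 of 45 rose and 6 fell, beside 18.6% and 17.3% of all genes (median 0.28), with Stat5a (1.54, SE 0.105), Stat3 (0.81, SE 0.0706), Il11 (2.00, SE 0.217), Socs1 (1.91, SE 0.219), Socs3 (0.74, SE 0.0864) and Lif (1.56, SE 0.192) having the smallest p. Of these, Il11 rose from 0.926 to 3.76 CPM and Socs1 from 0.670 to 2.57 CPM as group means.

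Among 11 genes of NF-kB subunits, IkB family members and inhibitors, 1 rose with LTP at 1 hr, Nfkbiz, a nuclear IkB family member (log2 0.48, SE 0.0776, adjusted p = 0.00599 by edgeR), and 4 rose at 3 hr (median 0.19). None of the 11 fell at either time, and 0.789% and 6.60% of all genes were called in these comparisons. Without replicate 1 of the 1 hr control the call of Nfkbiz at 1 hr was lost, in a fit with 1 control library, and at 3 hr the count was 2 without replicate 1 or 3 of the control or replicate 1 of the LTP group. The subunit gene Nfkb1 had 65.1, 69.0 and 65.2 CPM in the 3 hr controls and 108, 112 and 114 CPM with LTP (log2 0.75, SE 0.0564, adjusted p = 6.51e-04 by edgeR). Its 1 hr LTP libraries held 50.1, 54.9 and 51.6 CPM beside 49.4 and 50.7 CPM in the fitted controls. The inhibitors Nfkbie (0.56, SE 0.114) and Tnfaip3 (0.31, SE 0.0717) and again Nfkbiz (0.50, SE 0.0906) were the others called at 3 hr. Between the controls 8 of 11 rose, beside 16.1% of all genes (median 0.74), among them Nfkb2 (1.16), Relb (1.03), Nfkbia (0.96), Tnfaip3 (0.93), Nfkbie (0.74) and Nfkb1 (0.38). In LTP slices 9 of 11 rose, beside 18.6% of all genes (median 0.95).

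**Figure D4:**
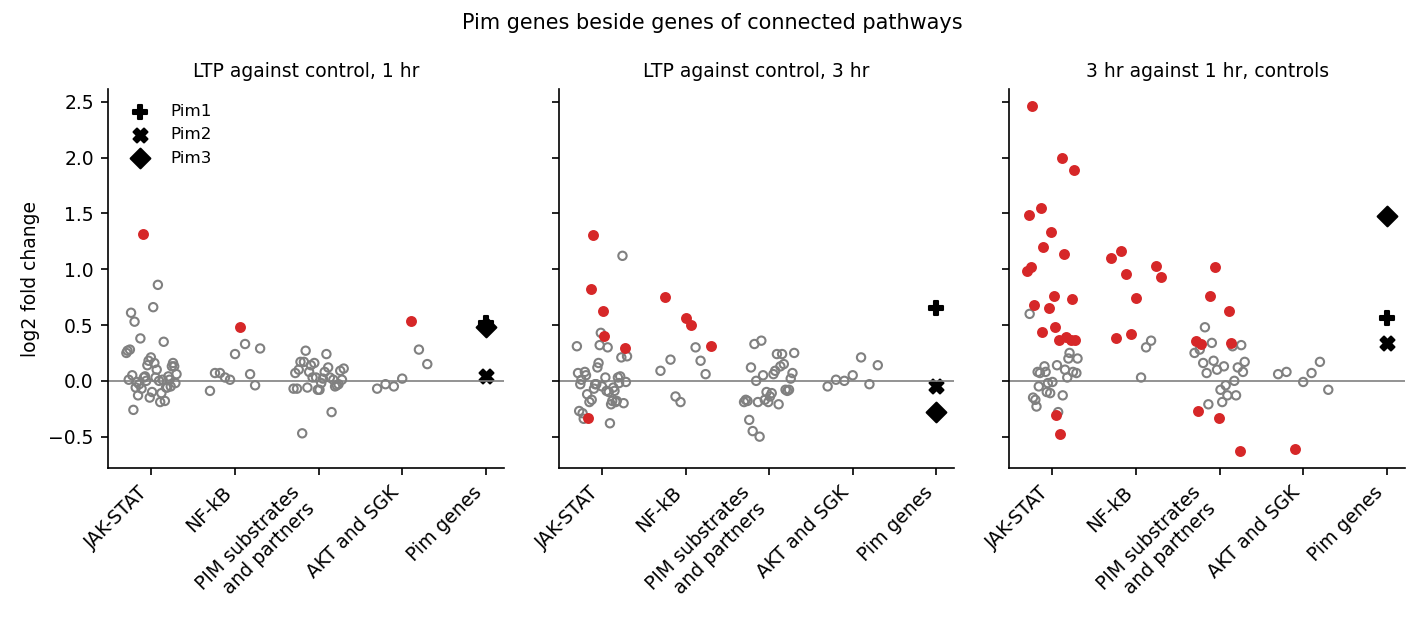
Log2 fold change (y axis) of each tested gene of 4 pathway lists and of the Pim genes (x axis, grouped by list) in 3 comparisons, with filled red circles for list genes that were called, open grey circles for the others, and black symbols for Pim1 (plus), Pim2 (cross) and Pim3 (diamond). With LTP at 3 hr Pim1 lies at 0.65 and Pim3 at -0.28, on opposite sides of 0. Between controls 20 of 45 JAK-STAT and 8 of 11 NF-kB genes are called higher and 2 and 0 lower. Of all genes, 16.1% are called higher and 16.8% lower in that comparison.

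Downstream, 31 genes of PIM substrates and partners were examined, 30 of which were tested. With LTP, 0 were called at either time point by edgeR's quasi-likelihood test. At an unadjusted p under 0.05 there was 1 at 1 hr, which was higher, and 7 at 3 hr, of which 6 were lower, and DESeq2 called 1 at each time point. Of all genes, 0.789% and 6.60% were called and 6.71% and 20.2% had an unadjusted p under 0.05 at 1 hr and 3 hr, so the 7 of 30 were near the share of all genes. The count reached 1 at 1 hr and 3 at 3 hr on leaving out 1 library (replicate 3 of the 1 hr LTP group, replicate 2 of the 3 hr LTP group). It was 2 at 3 hr without replicate 3 of the LTP group, with the replicate block and with the offsets. Between the controls 6 of 30 rose and 3 fell at 3 hr, a share near the 32.8% of all genes called there (median 0.15, beside -0.02 over all genes), and without replicate 3 of the 3 hr control 5 were called. The forkhead factor Foxo4 (log2 1.02), the pro-apoptotic PIM substrate Bad (0.36) and the translation repressor Eif4ebp1 (0.76, from 1.31 to 2.26 CPM as group means) rose. The ribosomal protein gene Rps6 (-0.63), the chaperone gene Hsp90aa1 (-0.33) and the heterochromatin protein gene Cbx3 (-0.27) fell. In LTP slices 7 rose and 5 fell, again near the share of all genes called (35.9%, median 0.14).

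Of the 7 AKT and SGK kinases, which share substrates with PIM kinases, Sgk1 rose with LTP at 1 hr, from 240 and 211 CPM in the fitted controls to 329, 360 and 286 CPM (log2 0.54, SE 0.0934, adjusted p = 0.0108 by edgeR), and none fell, where 0.789% of all genes were called. The call of Sgk1 was lost without replicate 3 of the 1 hr control, in a fit with 1 control library whose spread came from the LTP group. At 3 hr 0 were called by edgeR's quasi-likelihood test, with 1 of 7 higher at an unadjusted p under 0.05, beside 6.60% and 20.2% of all genes.

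Over the 12 libraries, log2 levels of the members correlated with each other at a Pearson's r of 0.762 for Pim2 and Pim3, 0.663 for Pim1 and Pim3 and 0.490 for Pim1 and Pim2. The 12 points fall into 4 groups and share animals, so these values only describe the libraries. Likeness was ranked among 14184 genes that averaged 1 CPM or more. Those most like Pim1 over the 12 libraries were the chemokine gene Cxcl1 (r = 0.982), Tpbg (0.980), the extracellular protease gene Adamts1 (0.977), Il6 (0.968) and the transcription factor gene Sox11 (0.967). The least like were Ssrp1 (-0.972), Nipsnap1 (-0.970) and the translation factor gene Eif4b (-0.959). Cxcl1 had group means of 13.6, 19.3, 26.0 and 46.4 CPM over all libraries, for control and LTP at 1 hr and then at 3 hr, the same order as Pim1.

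The genes most like Pim3 were Gemin7 (r = 0.977), the Krüppel-like factor gene Klf16 (0.976), the non-coding 1110038B12Rik (0.976), the stress-induced mTOR inhibitor gene Ddit4 (0.973) and the Notch ligand gene Dll1 (0.969). The least like were Dglucy (-0.979), Casc4 (-0.973) and Cep78 (-0.965). Klf16 was at 28.8, 29.7, 50.5 and 47.1 CPM as group means over all libraries in the same order as above, with the time points far apart and LTP close to control. In the fits, the log2 LTP effects at 1 hr and 3 hr were 0.19 and -0.17 for Gemin7 and 0.16 and -0.09 for Klf16. They were 0.23 and -0.07 for 1110038B12Rik, 0.20 and -0.05 for Ddit4 and 0.44 and -0.12 for Dll1. None of these effects, nor their difference between time points, was called. All 5 had the signs of Pim3, for likeness to which they were picked. For Pim2 the most alike were Sf3a2 (0.968), Lrrc47 (0.963), Actn4 (0.961), Armcx4 (0.958) and Preb (0.958), and the least alike were Slc1a1 (-0.967), Il18 (-0.959) and Zfp938 (-0.955). The 5 most alike spread widely within the 3 hr LTP group. They ran from 7.38 to 14.2, 25.4 to 52.8, 73.5 to 112, 86.6 to 117 and 55.4 to 79.9 CPM in that order. Pim2 ran from 19.0 to 28.2 CPM there, and the part of this spread in the likeness was not tested. Without the set-aside library, all 5 genes most like Pim1 were shared with the list above. For Pim2 and for Pim3 this held for 3 of 5. Of the 3 least alike, 2 were shared for Pim1 and 1 each for Pim2 and Pim3. With a pseudocount of 1 CPM over the 12 libraries, 3 of the 5 most alike were shared for Pim2 and all 5 for Pim1 and for Pim3.

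**Figure D5:**
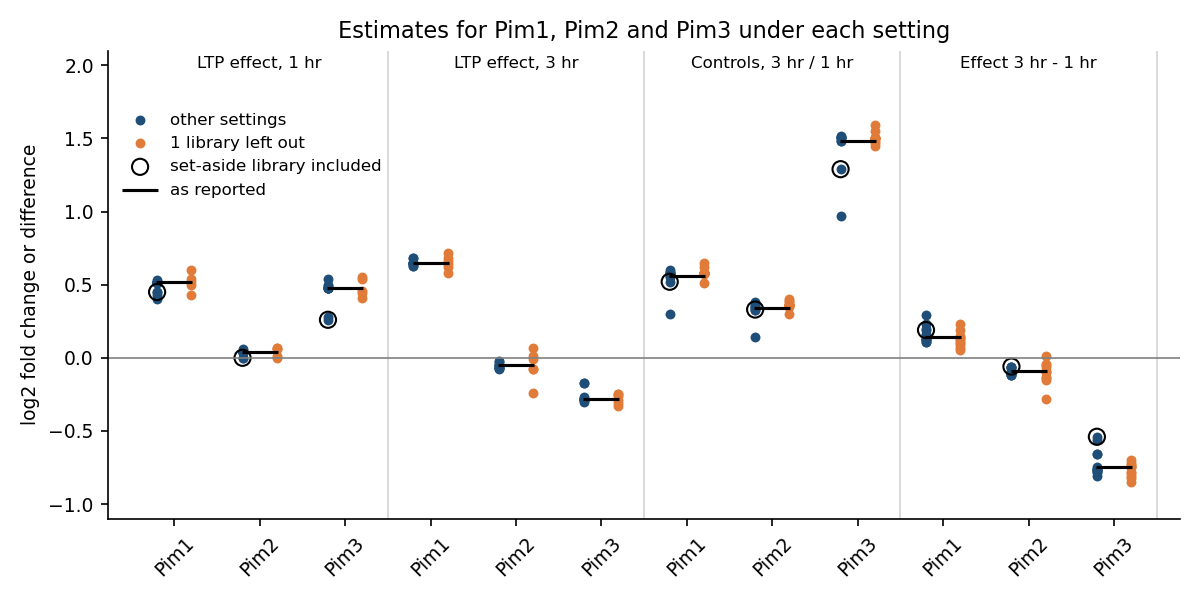
Log2 fold change, or difference of the LTP effect (y axis), of each Pim gene in 4 comparisons (x axis) as reported (black line), under other settings of scaling, filter, test, GC and length offsets and replicate block (blue), with 1 library left out (orange) and with the set-aside library included (black ring). No estimate of Pim1 or Pim3 crosses 0, whereas those of Pim2 with LTP lie on both sides of it, and the Pim3 rise between controls runs from 0.97 to 1.59.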

How the data were processed

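Total RNA was measured in 12 slice libraries by paired-end sequencing after depletion of ribosomal RNA with a stranded kit. Per the study's methods, the authors aligned reads to GRCm38/mm10 with STAR and deposited raw counts per gene, 1 table for each time point. The study's text used reads of coding regions, and whether the deposited counts hold these alone, used strand or kept multiply aligned reads is not stated in the sources used here, so levels per kb of exonic length are approximate. Of 41091 gene IDs, 40217 matched GENCODE M21 and 874 did not, and the latter were kept in the fits.

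Counts were fitted with edgeR 4.0.16 in R 4.3.3 (filterByExpr, TMM, quasi-likelihood F test, Benjamini-Hochberg adjustment over all genes), with calls at a fold change above 1.2 and an adjusted p below 0.1. The time points were fitted separately (5 libraries at 1 hr, 6 at 3 hr) and comparisons across time in 1 model of 11 libraries. Scripts were tested on simulated data. Replicates differed by more than counting error, with a chi-square per degree of freedom of 9.49 to 85.6. The highest value, 85.6, was that of 3 hr LTP replicates 2 and 3, both kept in the fits, and replicates 1 and 3 of that group had 44.0. The pairs of the set-aside library with the other 1 hr controls had 47.0 and 63.3. The numbers of the replicates name animals in the labels and pair the libraries within a time point. Across 18240 genes, deviations of paired libraries from their group means correlated at -0.0172, -0.119 and 0.0743 at 1 hr and at 0.0253, -0.0459 and 0.178 at 3 hr.

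Alternatives were DESeq2 1.42.0, limma-voom (limma 3.58.1), other scalings and filters, the set-aside library, animal as a replicate block, offsets for GC content and length from splines with 5 degrees of freedom, and leaving out each library. The Pim genes and the pathway and marker lists were chosen with earlier results of these data known. Genes named were the Pim genes, called members of the lists (at most the 6 with the smallest p for a list and comparison), and the 5 most and 3 least alike by Pearson correlation of log2(CPM + 0.1) among genes that averaged 1 CPM or more. Markers, genes of other groups set beside these and the antisense neighbour were named for their place in the text. Promoter sequences came from RefSeq.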

Additional observations from a re-analysis of the deposited data

Results flagged for a closer look

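The effect of LTP on Pim3 differed between the time points by -0.75 on the log2 scale (3 hr minus 1 hr, SE 0.112), being above 0 at 1 hr and below 0 at 3 hr. Pim3 was chosen for this pattern, so no test is given for it, and with the set-aside library the difference was -0.54.

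Of the genes in the pathway lists, the effect of LTP on the NF-kB subunit gene Nfkb1 differed between the time points by 0.69 on the log2 scale (SE 0.0878, adjusted p = 0.0166 by edgeR's quasi-likelihood test of the interaction). It was the 1 gene called of 11 in its list, beside 0 of 45, 30 and 7 tested in the others. Over all genes, 0.0592% of 18584 were called. The call of Nfkb1 was lost without replicate 3 of the 1 hr control, which left 1 library in that group, assumed to vary like the others. Its level was 108 to 114 CPM in the 3 hr LTP libraries and 65.1 to 69.0 CPM in the 3 hr controls, beside 50.1 to 54.9 CPM and 49.4 to 50.8 CPM in the 1 hr LTP and control libraries. At 3 hr it was higher with LTP in 3 of 3 animals.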

How the results depend on the processing

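Of 192 refits of the 10 results of Pim1 and Pim2, 181 kept their call or its absence, 8 lost a call, 3 gained one and 0 reversed a called value. Values of Pim3 are given for description. Leaving out 1 library gave 0.43 to 0.60 for Pim1 with LTP at 1 hr, 1.45 to 1.59 for Pim3 and 0.30 to 0.40 for Pim2 between controls, 0.07 to 0.37 for Pim2 between LTP slices and -0.85 to -0.70 for the difference of the Pim3 effects (log2). With the set-aside library, Pim3 had 0.26 with LTP at 1 hr, 1.29 between controls and -0.54 as the difference, and Pim2 had 0.27 between LTP slices (adjusted p = 0.0883 by edgeR). With the replicate block and that library, Pim3 had 0.28 and -0.56, and Pim1 at 1 hr had 0.45 (adjusted p = 0.101 by edgeR). The replicate block on the fitted libraries changed no call of a Pim gene, with 0.43 for Pim1 at 1 hr, 0.65 for Pim1 and -0.28 for Pim3 at 3 hr. It was not fitted between time points, because the labels do not state whether animals with the same number at 1 hr and 3 hr are the same. Offsets for GC content and length gave Pim3 -0.17 with LTP at 3 hr (-0.17 with the block too), 0.97 between controls, 0.31 between LTP slices and -0.66 as the difference (-0.66 with the block), and Pim2 0.14 between controls. Where no cause is plain from fewer libraries, the cause was not tested. Over all genes, the 140 calls at 1 hr became 347 without a filter and 310 with offsets and block, and the 11 differences became 80 by DESeq2, 102 without a filter, 25 with offsets, 19 with offsets and block and 7 with block and set-aside library. Leaving out 1 library gave 69 to 344 calls at 1 hr, 228 to 2170 at 3 hr (1155 with all) and 1 to 67 differences, and the shares over all genes move with these counts. Called PIM substrates between controls fell from 9 to 5 with offsets.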
